A study of Arabidopsis thaliana with 12 samples.

Results

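The WRKY genes of Arabidopsis thaliana encode a plant family of transcription factors, and SOB3-GFP peaks at these genes are described here. Members were all nuclear protein-coding genes whose symbol or synonym in the RefSeq annotation of TAIR10.1 was WRKY followed by a number, which gave 71 of 27444 genes. A peak was assigned to a gene when it overlapped, by at least 1 bp, the gene body, the 2000 bp upstream of its transcription start site (TSS) or the 1000 bp downstream of its end. Peaks lying between neighbours can therefore be counted for several genes.

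All samples were whole seedlings of Columbia (Col-0) with the genotype ProSOB3::SOB3-GFP sob3-4, in which the SOB3 promoter drives an AT-hook protein, SOB3, fused to GFP in a mutant of SOB3 itself. The day had 8 h of light and 16 h of darkness, and seedlings were harvested at ZT4 (4 h after lights on), ZT9 (1 h into darkness) or ZT24 (the following dawn), to ask whether SOB3 binding changes through the day. Plants were 5 days old at ZT4 and ZT9 and 6 days old at ZT24, where a harvest label reads ZT0, so age and ZT24 cannot be told apart. Each time point had 3 ChIP replicates, precipitated with an antibody to GFP, and 1 input (chromatin that was not precipitated), and a peak list was used for each of the 9 ChIP samples. No sample from plants without GFP was used here. Whole seedlings mix all cell types, so fewer cells with a bound site and less binding per cell cannot be told apart.

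WRKY proteins carry the WRKY domain, which binds the W-box, a DNA element built on TTGAC. Many members act in immunity, senescence and responses to abiotic stress, and others act in seed, trichome or embryo development. WRKY genes commonly regulate each other and themselves through W-boxes in their own promoters. AT-hook proteins such as SOB3 bind AT-rich DNA and act with other transcription factors at their targets.

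Sequences of 121 bp centred on the summit are shown for sites that touched no annotated exon. The first 3 had the highest mean fold enrichment rank among such sites, and the other 4 had the smallest p in the comparison of time points given below. Each is written 5′ to 3′ on the strand of the WRKY gene, from TAIR10.1, whose nuclear chromosomes are those of TAIR10. Capitals mark matches, on either strand, to the W-box core (TTGAC), to a TCP-like motif (GGACCA or GGCCCA or GGTCCA), to a PIF-like motif (CACACG or CACATG or CACGCG or CACGTG) and to an AT-rich motif (AAATAAAA or AAATAATA or ATATAAAA or ATATAATA).
WRKY22, 1129 bp upstream, chr4:525318-525438, minus strand: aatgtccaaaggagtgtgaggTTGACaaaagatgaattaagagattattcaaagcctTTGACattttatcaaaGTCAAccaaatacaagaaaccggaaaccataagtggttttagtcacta
WRKY53, 2066 bp upstream, chr4:12395988-12396108, minus strand: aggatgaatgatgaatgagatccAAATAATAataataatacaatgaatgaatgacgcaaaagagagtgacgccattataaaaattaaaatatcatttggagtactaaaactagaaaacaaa
WRKY11, 541 bp upstream, chr4:15292415-15292535, minus strand: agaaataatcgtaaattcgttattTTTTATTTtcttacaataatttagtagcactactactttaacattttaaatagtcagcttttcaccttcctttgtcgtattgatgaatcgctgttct
WRKY6, downstream of the gene, chr1:23016065-23016185, minus strand: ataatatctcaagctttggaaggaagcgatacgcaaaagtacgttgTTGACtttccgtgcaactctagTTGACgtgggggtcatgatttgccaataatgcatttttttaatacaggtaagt
WRKY35, 267 bp upstream, chr2:14697010-14697130, minus strand: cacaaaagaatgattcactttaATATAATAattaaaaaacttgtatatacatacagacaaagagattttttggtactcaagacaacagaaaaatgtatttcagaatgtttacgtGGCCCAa
WRKY57, 483 bp upstream, chr1:26058806-26058926, minus strand: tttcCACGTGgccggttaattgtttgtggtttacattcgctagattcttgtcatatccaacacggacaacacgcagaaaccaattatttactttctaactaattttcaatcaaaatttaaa
WRKY46, 1645 bp upstream, chr2:19046540-19046660, minus strand: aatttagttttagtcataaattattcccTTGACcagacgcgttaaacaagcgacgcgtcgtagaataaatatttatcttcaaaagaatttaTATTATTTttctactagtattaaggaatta

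The WRKY22 stretch holds 3 W-box cores, 2 read on the strand shown and 1 as the reverse complement GTCAA, and the WRKY6 stretch holds 2. The WRKY57 stretch holds 1 PIF-like match, the palindrome CACGTG known as the G-box. A match describes letters in the window and is not by itself a binding site.

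Most WRKY genes carried SOB3-GFP peaks at every time of day. Counting a gene as bound at a time point when at least 2 of 3 replicates had a peak in its window, 56 WRKY genes were bound at ZT4, 56 at ZT9 and 58 at ZT24, and 55 were bound at all 3 time points. Over all protein-coding genes, 68.1% were bound at ZT4, 66.3% at ZT9, 68.3% at ZT24 and 61.3% at all 3 time points, against 78.9%, 78.9%, 81.7% and 77.5% of WRKY genes. In single lists, the 3 replicates at ZT4 had 56, 53 and 55 WRKY genes with a peak (54.7 ± 1.53, SD, n = 3), those at ZT9 had 58, 56 and 55 (56.3 ± 1.53), and those at ZT24 had 57, 59 and 56 (57.3 ± 1.53). The ranges of the 3 time points overlapped.

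A peak stood in all 9 lists at 50 WRKY genes (70.4%, against 52.4% of all genes), and 11 WRKY genes (15.5%, against 20.3%) had no peak in any list. WRKY windows held 3.15 to 3.71 peaks per 10 kb over the 9 lists, against 2.15 to 2.59 for all gene windows, with a median window of 5110 bp against 5078 bp. The median distance from the TSS to the next gene upstream was 2970 bp for the WRKY genes with a peak in all 9 lists and 1066 bp for all such genes. It was 2502 bp for the WRKY genes with no peak in any list and 1075 bp for all genes with none. No test was made over the members, which share chromosomal neighbours and were chosen with earlier results of these data known.

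**Figure D1:**
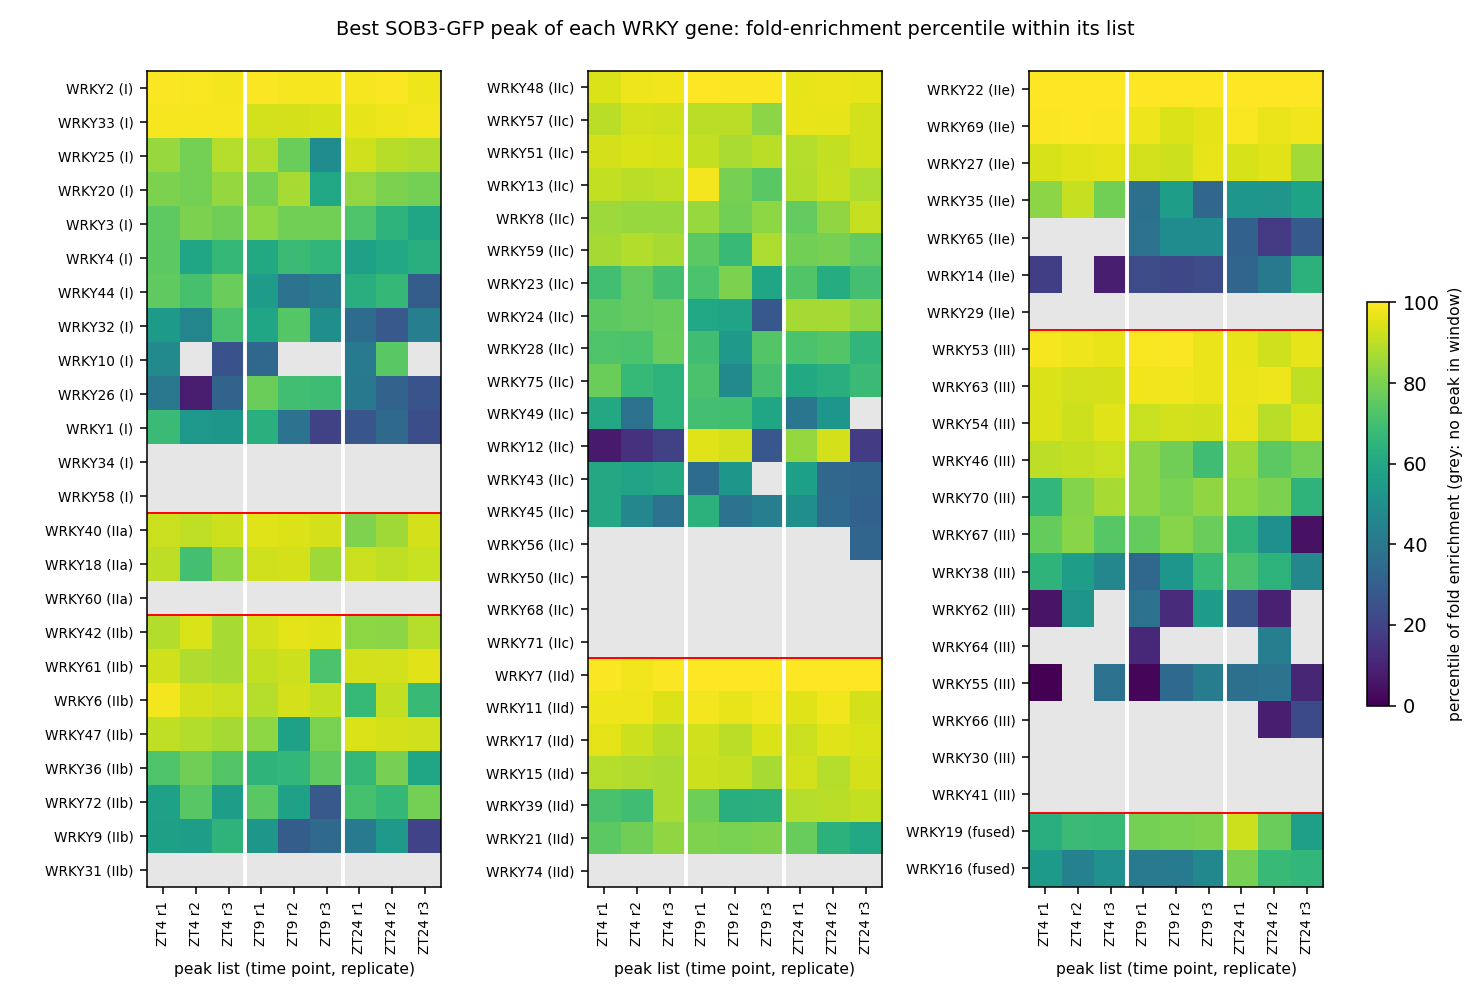
Heat map of the 71 WRKY genes (rows, with their structural subgroup in brackets, red lines between subgroups) in the 9 peak lists (columns, time point and replicate). Colour gives the percentile of fold enrichment of the best peak in the gene's window within its own list, and grey marks lists with no peak; 50 rows are coloured throughout and 11 are grey throughout.

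The strength of each peak was read as its fold enrichment over background from the authors' peak caller, and as the percentile of that fold among the nuclear peaks of the same list, because fold values are scaled within a list. The best peaks of WRKY genes ranked higher than those of genes in general. The mean percentile of the best peak had a median of 74.9 over the 60 WRKY genes with a peak and of 53.7 over all genes with one. The lower and upper quartiles of the WRKY genes were 53.7 and 90.3. A mean percentile of at least 90 was reached by 16 WRKY genes (22.5%), against 9.32% of all genes.

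Subgroups of the family, defined by the WRKY domain and its zinc finger, differed in these counts, though the smallest held very few genes. Group IId, whose members bind calmodulin, had the highest median percentile, 91.5, among its 6 genes with a peak, and 4 of its 7 genes (WRKY7, WRKY11, WRKY17 and WRKY15) had a mean percentile of at least 90. Group IIb had 7 of 8 genes bound at all 3 time points with a median percentile of 85.2, but none reached 90. Group I had 10 of 13 genes bound at all 3 time points and a median of 63.9, group IIc 14 of 18 and 70.02, and group III 9 of 13 and 65.3. Group IIe had 5 of 7 and 76.8, and group IIa 2 of 3 and 89.3. Both genes that fuse a WRKY domain to an immune receptor, WRKY16 and WRKY19, were bound at all 3 time points, with a median of 64.2. Another such gene, RRS1 (WRKY52), carries only the synonym ATWRKY52 and was not a member by the rule.

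The strongest member was WRKY22, which acts downstream of a MAP kinase cascade in the response to bacterial flagellin. Its best peak had folds of 11.7, 9.66 and 11.3 at ZT4, of 9.82, 9.20 and 7.73 at ZT9, and of 12.5, 12.2 and 11.1 at ZT24. The mean percentile was 99.9. The ZT4 and ZT9 ranges overlapped, while all ZT9 values lay below all ZT24 values. The site (chr4:523936-527294) had its summit 1129 bp upstream of the TSS, and limma on the fold rank did not call it (adjusted p = 0.191).

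WRKY7, a calmodulin-binding member of group IId, followed, and its best peak in the 3 lists of ZT4 had folds of 9.44, 6.47 and 9.28. The ZT9 folds were 8.93, 9.29 and 8.59, and the ZT24 folds 9.17, 9.90 and 9.46. All time points overlapped, with the best peak taken from different sites in different lists. The gene carried strong sites at both ends. One summit lay in the 3′ UTR, 2043 bp from the TSS (mean percentile 99.2), another in the 5′ UTR at 169 bp (98.5), and a weaker one 1552 bp upstream (79.6). The 300 bp around the 5′ UTR summit held 5 W-box cores, a number shared with 1 other of the 147 WRKY sites and exceeded by none.

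WRKY2, which sets the polarity of the zygote through WOX8, had its best peak at 9.32, 7.25 and 7.64 at ZT4, 8.01, 7.22 and 6.27 at ZT9, with 7.95, 9.01 and 6.77 at ZT24. The 3 time points overlapped. That summit lay 2224 bp upstream, just beyond the window, and its nearest TSS was that of AT5G56260. Sites nearest to WRKY2 itself stood 232 bp upstream (mean percentile 68.5) and in an intron at 974 bp (46.5).

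WRKY69 of group IIe had folds of 9.55, 8.25 and 8.94 at ZT4, of 6.82, 5.45 and 5.25 at ZT9, and of 8.27, 6.74 and 6.98 at ZT24, with a summit in the 5′ UTR 52 bp from the TSS. All ZT9 values lay below all ZT4 values. The pileup behind these folds, meaning the number of ChIP fragments over the summit recovered from fold and p, ranged from 153 to 195 at ZT4, from 156 to 174 at ZT9 and from 146 to 204 at ZT24, and overlapped throughout.

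WRKY33, required for camalexin synthesis and resistance to necrotrophic fungi, showed a like pattern at its 5′ UTR, 82 bp from the TSS. Its folds were 8.27, 6.88 and 7.71 at ZT4, 5.60, 5.32 and 4.80 at ZT9, with 6.50, 7.04 and 7.33 at ZT24. The ZT9 values lay below all others, but the rank test did not call the site (limma, adjusted p = 0.0689). Its pileups were 155, 135 and 119 at ZT4, 138, 140 and 129 at ZT9, with 155, 152 and 137 at ZT24, which overlapped.

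WRKY48, a negative regulator of basal resistance to bacteria, had its summit on the TSS, with folds of 6.44, 6.13 and 7.30 at ZT4, 8.81, 7.86 and 7.31 at ZT9, with 6.58, 6.81 and 6.32 at ZT24. Here ZT9 was the highest time point. WRKY53, a regulator of leaf senescence, had folds of 8.47, 6.23 and 6.66 at ZT4, 7.77, 7.68 and 5.53 at ZT9, with 6.59, 5.58 and 6.27 at ZT24 at a site 2066 bp upstream. WRKY11, a negative regulator of basal defence in group IId, had 7.45, 6.19 and 6.13 at ZT4, 7.11, 5.96 and 6.07 at ZT9, with 6.22, 7.21 and 5.58 at ZT24 at a site 541 bp upstream. Time points overlapped at the last of these genes and at WRKY53.

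The list of 10 was completed by WRKY63 and WRKY27. WRKY63 (ABO3), which acts in abscisic acid signalling, had folds of 6.39, 5.00 and 5.81 at ZT4, 7.03, 6.55 and 5.52 at ZT9, with 6.88, 7.01 and 5.01 at ZT24, with its summit 352 bp upstream. WRKY27, which affects symptom development in bacterial wilt, had 6.28, 5.44 and 6.46 at ZT4, 5.57, 5.12 and 5.35 at ZT9, with 5.94, 6.15 and 4.53 at ZT24. Its best summit lay downstream and was nearest to the TSS of AT5G52840, and a site 1608 bp upstream of WRKY27 had a mean percentile of 74.9.

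**Figure D2:**
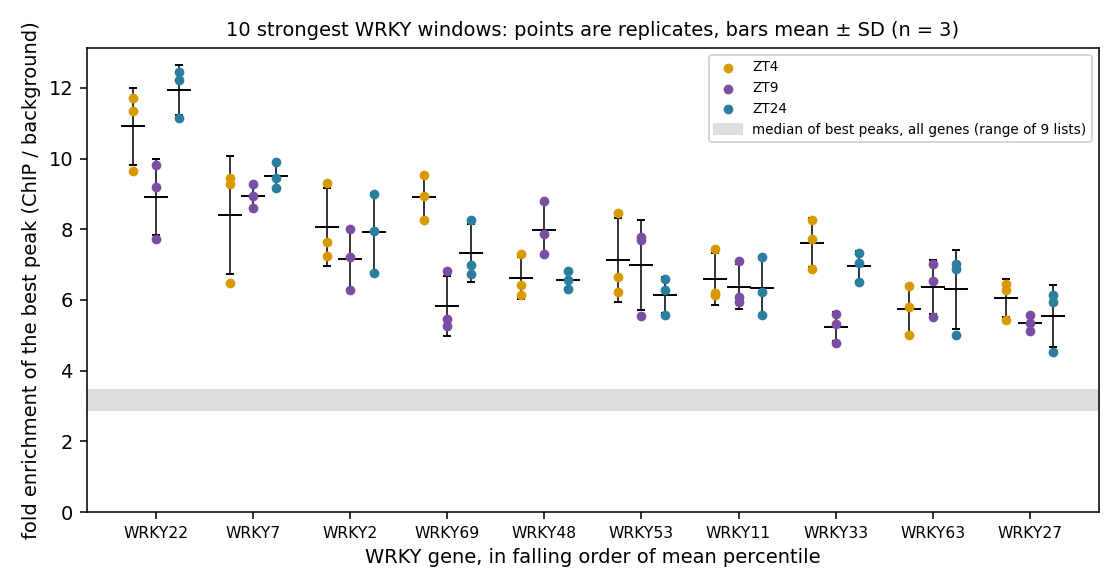
Fold enrichment of the best peak (y axis, ChIP over background) for the 10 WRKY genes with the highest mean percentile; points are the 3 replicates of each time point, bars are mean ± SD, and the grey band is the range over 9 lists of the median best-peak fold of all genes with a peak (2.88 to 3.46). All points lie above the band, and WRKY22 reaches 12.5 at ZT24.

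Regulators of salicylic acid signalling and basal defence were bound to unequal degrees. WRKY18 and WRKY40, which act as repressors in basal defence and abscisic acid responses, were bound in all 9 lists within the 5′ UTR, with mean percentiles of 87.7 and 90.8. WRKY60, their partner in group IIa, had no peak in any list. WRKY54 and WRKY70, a pair that restrains senescence and salicylic acid synthesis, had mean percentiles of 93.4 (summit just upstream of the TSS) and 78.7. The best peak in the WRKY70 window lay downstream and was nearest to the TSS of AT3G56390, and its site at the 5′ UTR had a mean percentile of 36.9. WRKY46, a group III relative of these genes, stood at 82.4.

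The other genes of the list by role, which act in senescence, nutrition and development, had a peak in all 9 lists. WRKY6, which acts in senescence and represses the phosphate exporter gene PHO1, had a mean percentile of 86.9 at a site 1127 bp upstream. WRKY75, a regulator of phosphate acquisition, had 65.6 at a site 1595 bp upstream. WRKY23, which acts in auxin-dependent development, had 70.3 in its 5′ UTR. WRKY44 (TTG2), needed for trichomes and seed coat, had 57.5 at a site 304 bp upstream. WRKY12, a repressor of secondary walls in pith, had a weak peak 58 bp upstream in 5 lists (mean percentile 11.9), and a strong site beyond its downstream end (mean percentile 89.7 over 9 lists) was nearest to the TSS of CYCP4;1 and reached its window in some lists only.

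The 11 WRKY genes without a peak were WRKY29, WRKY30, WRKY31, WRKY34, WRKY41, WRKY50, WRKY58, WRKY60, WRKY68, WRKY71 and WRKY74. They came from 7 of the subgroups. WRKY29 acts beside WRKY22 in flagellin signalling and was thus unlike the strongest member, WRKY34 acts in pollen, and WRKY41 acts in seed dormancy. Their 2000 bp upstream regions had a median GC content of 29.1%, against 29.7% in the 50 WRKY genes with a peak in all 9 lists. The number of W-box cores in these regions had a median of 5 in both sets, that of TCP-like matches 0 against 1, that of PIF-like matches 1 against 3, and that of AT-rich matches 3 against 4.5. Over all genes the medians without a peak and with one in all 9 lists were 4 and 4 for the W-box core, 1 and 2 for TCP-like, 1 and 2 for PIF-like and 2 and 3 for AT-rich matches.

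A list holds only peaks past the caller's threshold, so a gene without a peak may still be bound below it. The weakest peak of each list had a −log10 q of at most 1.33. The lowest background of each list, only a rough guide to depth, was 12.1 to 15.8 fragments per base, and the lists held 20988 to 24850 peaks each. Reads mapping to several places had been discarded, which lowers peaks in near-identical copies.

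Only 3 WRKY genes (4.23%, against 12.3% of all genes) were bound at 1 or 2 time points. WRKY65 of group IIe had no peak in the 3 ZT4 lists and a peak in all 3 lists at both ZT9 and ZT24. Its site (chr1:10236058-10236412, summit 63 bp upstream) had folds of 2.56, 2.69 and 2.52 at ZT9 and of 2.36, 2.12 and 2.37 at ZT24. Of all protein-coding genes, 21 (0.0765%) had this pattern of lists. Their percentiles were 37.9, 48.8 and 48.7 at ZT9 and 31.04, 17.001 and 28.3 at ZT24, all below the middle of their lists, and no test applies to the lists without a value.

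WRKY10 (MINI3), which acts in seed size, had a peak in 2, 1 and 2 of 3 lists at ZT4, ZT9 and ZT24, with folds between 2.32 and 3.78, and was bound at ZT4 and ZT24. Its site lay downstream and was nearest to the TSS of AT1G55590. WRKY66 had a peak in 2 lists, both at ZT24, with folds of 1.95 and 2.27. Peaks below the count of 2 replicates remained at WRKY56, in 1 list at ZT24, and at WRKY64, in 1 list each at ZT9 and ZT24.

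Binding at WRKY genes was spread over upstream regions, gene starts and gene ends. Merging overlapping peaks of the 9 lists gave 147 sites in WRKY windows, or 148 pairs of site and gene, since WRKY54 and WRKY55 share 1 site. Of the 60 genes with a site, 16 had 1, 18 had 2, 14 had 3 and 12 had more, up to 6 at WRKY33. Summits lay upstream in 81 pairs (54.7%, against 53.3% over all genes), in the gene body in 35 (23.6%, against 21.6%) and downstream in 32 (21.6%, against 25.1%). Within the gene body, 19 summits lay in the 5′ UTR, 8 in the 3′ UTR, 5 in introns and 3 in coding exons.

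The nearest TSS was that of the WRKY gene in 95 of 148 pairs, and 11 summits lay in the body of another gene. All 9 lists held 90 of the 147 sites (61.2%, against 46.8% of all 28285 sites). Sites in 1 list numbered 14. The mean percentile had a median of 20.7 (0.779 to 56.8) over the 57 sites found in fewer than 9 lists and of 71.7 (29.5 to 99.9) over the 90 found in all.

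**Figure D3:**
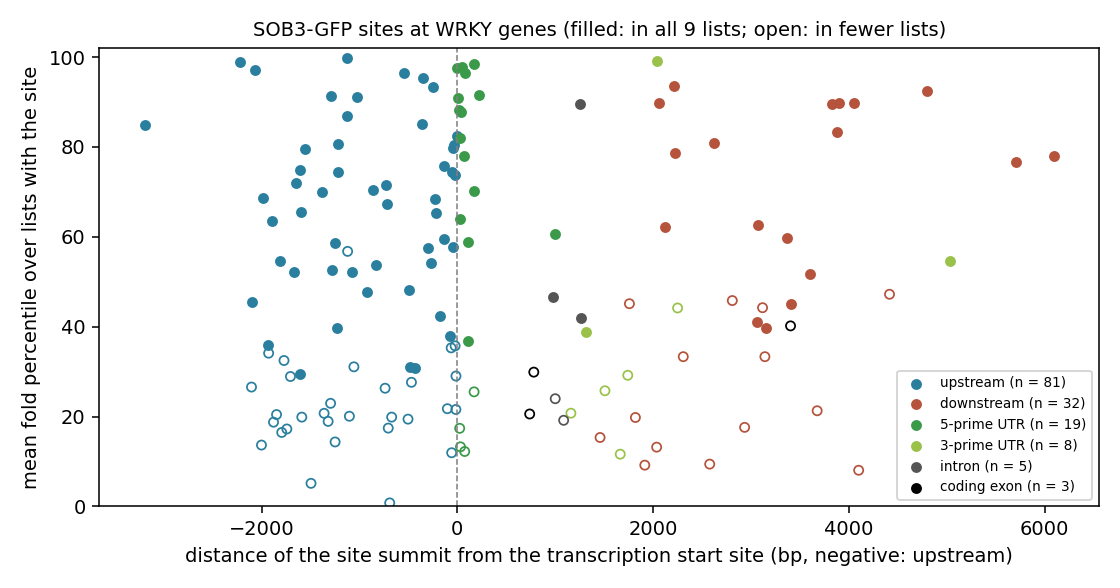
Each point is a pair of SOB3-GFP site and WRKY gene; the x axis gives the distance of the summit from the TSS in bp (negative upstream), the y axis the mean fold percentile over the lists with the site, colours the annotated place and filled points the sites in all 9 lists. Filled points reach the top of the scale upstream (WRKY22, 99.9), at the TSS (WRKY7, 98.5) and at the gene end (WRKY7, 99.2), and open points reach 56.8.

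The letters of the W-box were common in WRKY sites and in WRKY promoters alike. A W-box core lay within the 300 bp around the summit at 62.6% of the 147 WRKY sites and at 50.1% of all sites. In the 300 bp upstream of the TSS it lay at 59.2% of WRKY promoters and 50.4% of all promoters. The longer forms TTGACC or TTGACT were present at 43.5% of WRKY sites and 31.7% of all sites, and in 40.8% of WRKY promoters and 32.3% of all promoters.

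TCP-like matches, the letters bound by TCP transcription factors, were present at 29.9% of WRKY sites and 34.05% of all sites, and at 16.9% of WRKY promoters and 23.6% of all promoters. PIF-like matches, which PIF proteins of light and growth signalling bind, were present at 37.4% of WRKY sites and 33.02% of all sites. AT-rich matches were present at 55.8% of WRKY sites and 49.8% of all sites. That order turned when only sites in all 9 lists were counted, at 52.2% of 90 WRKY sites and 55.8% of 13251 sites, while the W-box order remained, at 62.2% and 50.5%. W-box cores shared bases with PIF-like matches in 3 of the 147 windows, with an AT-rich match in 1 and with TCP-like matches in 0. Mean GC content was 32.95% at WRKY sites and 32.65% at all sites.

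Sites of the strongest members differed in these letters. The 300 bp windows of WRKY2 and WRKY11 held 3 W-box cores each, while those of WRKY69 and WRKY48 held no W-box core and 4 and 5 AT-rich matches. The 5′ UTR site of WRKY40 held 3 TCP-like and 2 PIF-like matches and no W-box core.

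**Figure D4:**
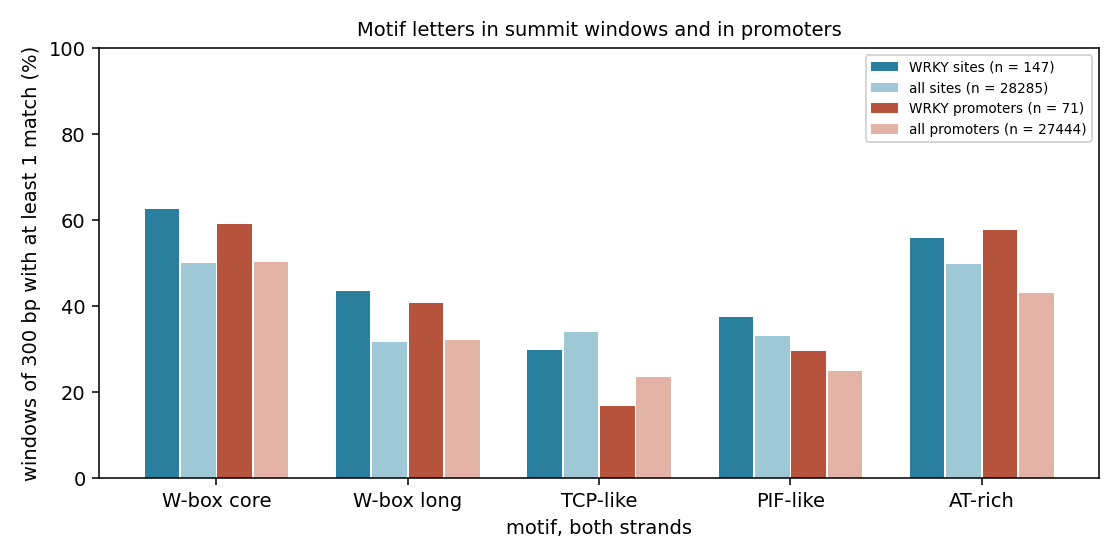
Share of 300 bp windows with at least 1 match on either strand (y axis, percent) for 5 motifs (x axis), in summit windows of WRKY sites and of all sites and in the 300 bp upstream of the TSS of WRKY genes and of all genes. The W-box core share is higher for WRKY sites (62.6%) and WRKY promoters (59.2%) than for all sites (50.1%) and all promoters (50.4%).

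The fold rank of some WRKY sites differed between the lists of the 3 time points, in a share close to that of all sites. At sites in all 9 lists, folds were ranked list by list, ranks were turned into normal scores (values spread as a standard normal variable), and limma tested the 3 time points over all 13251 such sites, with Benjamini-Hochberg adjustment and a threshold of 0.05. It called 13 of 90 WRKY sites (14.4%), at 11 genes, against 14.6% of all sites. Leaving out any 1 of the 9 lists reduced the 13 calls to between 5 and 8, and the calls over all sites from 1930 to between 959 and 1257 (7.19% to 9.31% of sites). At the WRKY genes, 5 of the 13 sites were called in all 9 of these fits. This was counted for WRKY sites only, so it cannot be read as particular to them.

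Between pairs of time points, 3 WRKY sites were higher and 5 lower at ZT9 than at ZT4, against 4.09% and 4.23% of all sites (8.32% together). By limma 0 were higher and 2 lower at ZT24 than at ZT4 (21 had an unadjusted p under 0.05 in either direction), against 2.38% and 2.62% (5.00% together). Here and below, sites with an unadjusted p under 0.05 were counted among WRKY sites only, so no share over all sites stands beside them. At ZT24, 6 were higher and 5 lower than at ZT9, against 4.63% and 4.35% (8.97% together). Leaving out 1 list gave 4 to 9, 0 to 2 and 1 to 10 called sites in the 3 comparisons, in either direction, against 3.47% to 7.28%, 0.710% to 4.25% and 2.90% to 8.00% of all sites. For ZT9 against ZT4, the count was 4 without ZT4 replicate 1, ZT4 replicate 2 or ZT9 replicate 2. For ZT24 against ZT4, it was 0 without any 1 of the ZT4 lists or without ZT24 replicate 1, and 1 without ZT9 replicate 2, ZT24 replicate 2 or ZT24 replicate 3. For ZT24 against ZT9, it was 6 without ZT4 replicate 1, 3 without any 1 of the ZT9 lists or without ZT24 replicate 3, 2 without ZT24 replicate 1 and 1 without ZT24 replicate 2. The comparisons share samples with each other and are not independent.

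The recovered pileup and the recovered background, the parts of the fold, were also ranked each on its own. Ranking the pileup in place of the fold, limma called 0 of the 90 WRKY sites (13 had an unadjusted p under 0.05, lowest adjusted p = 0.0669), against 0.226% of all sites. Pairs of time points also gave 0 calls by pileup (11 or 12 with an unadjusted p under 0.05), against 0.0679% for ZT9 and ZT4, 0.00% for ZT24 and ZT4 and 0.204% for ZT24 and ZT9. Ranking the recovered background, it called 62 of the 90, against 61.8% of all sites. Lists of a time point may share its 1 input, so their backgrounds may not be independent replicates. The calls by background are therefore not comparable with those by pileup. Ranking −log10 p, limma called 3 over the time points, against 1.80%, and 4, 0 and 0 in the pairs (14, 14 and 18 with an unadjusted p under 0.05), against 1.15%, 0.340% and 1.16%. At all 13 called sites the background was lower at the time point with the highest fold rank than at the one with the lowest. The sites and these time points were chosen by fold, a ratio over background, so the choice itself favours that order. At 10 of the 13 the replicates of these time points did not overlap in background rank. The pileup rank of the same time points did not overlap, in the direction of the fold, at 6 of the 13. No such counts were made over all sites, so none can be read as particular to WRKY sites. With 1 input per time point, a difference in input and a difference in time cannot be told apart.

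The site with the smallest p lay downstream of WRKY6 (chr1:23015786-23016302, 444 bp past the gene end) and was nearest to the TSS of AT1G62290. Its folds were 4.63, 3.87 and 4.30 at ZT4, 2.65, 2.53 and 1.87 at ZT9, with 3.34, 3.54 and 3.12 at ZT24. The groups did not overlap. In normal scores, ZT9 minus ZT4 was −1.72 (SE 0.24, limma adjusted p = 0.00495). Its pileups were 79, 70 and 61 at ZT4, 67, 66 and 62 at ZT9, with 74, 76 and 56 at ZT24. These counts overlapped, though their ranks within the lists did not overlap between ZT4 and ZT9 (mean percentiles 72.5 and 66.6). The background was 13.4 to 17.3 fragments at ZT4 and 24.7 to 32.6 at ZT9.

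WRKY35 of group IIe had folds of 4.58, 4.68 and 4.03 at ZT4, 2.37, 2.54 and 1.79 at ZT9, with 2.87, 2.87 and 2.95 at ZT24, 267 bp upstream of its TSS. No time point overlapped another. ZT9 minus ZT4 was −2.03 (SE 0.29, limma adjusted p = 0.00528) and ZT24 minus ZT4 was −1.21 (SE 0.29, adjusted p = 0.0421). Its pileups were 87, 92 and 65 at ZT4, 64, 75 and 56 at ZT9, with 79, 71 and 61 at ZT24, and its background was 15.4 to 18.9 at ZT4 and 26.4 to 30.8 at ZT9.

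WRKY57, which acts in drought tolerance and in jasmonate-induced senescence, had folds of 3.01, 2.52 and 3.16 at ZT4, 1.93, 1.77 and 1.74 at ZT9, with 2.64, 2.68 and 2.12 at ZT24 at the site 483 bp upstream that holds the G-box letters. The best peak in the WRKY57 window lay at another site and had a mean percentile of 91.5, against 30.9 for the site upstream. At the upstream site all ZT9 folds lay below all others. ZT9 minus ZT4 was −1.73 (SE 0.26, limma adjusted p = 0.00604). The pileups were 57, 54 and 48 at ZT4, 37, 43 and 43 at ZT9, with 48, 47 and 33 at ZT24, so that ZT4 lay above ZT9 in this measure as well, though the pileup rank did not pass the test (adjusted p = 0.139).

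WRKY26, which acts in heat tolerance with WRKY25 and WRKY33, moved the other way. At 77 bp upstream, inside the body of AT5G07090, its folds were 2.59, 1.83 and 2.04 at ZT4, 3.95, 2.84 and 3.02 at ZT9, with 2.29, 2.39 and 2.33 at ZT24. All ZT9 folds lay above all others, and ZT9 minus ZT4 was 1.77 (SE 0.28, limma adjusted p = 0.00693). Its pileups were 49, 39 and 34 at ZT4, 58, 55 and 51 at ZT9, with 49, 51 and 40 at ZT24, with ZT9 at or above all other values. This site had the lowest adjusted p of the 90 for the pileup rank (limma, 0.0669).

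WRKY24 had its only site 1382 bp upstream, nearest to the TSS of AT5G41560, with folds of 3.98, 3.43 and 3.90 at ZT4, 3.14, 2.94 and 2.17 at ZT9, with 4.75, 4.73 and 4.29 at ZT24. The 3 groups did not overlap. ZT24 minus ZT9 was 1.28 (SE 0.24, limma adjusted p = 0.0130), with a pileup of 62 to 82 at ZT9 and 64 to 88 at ZT24. These 5 sites, at WRKY6, WRKY35, WRKY57, WRKY26 and WRKY24, were the ones called whichever list was left out.

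The next 3 sites were called in 3 or fewer of those 9 fits. WRKY46 had folds of 4.72, 4.19 and 3.96 at ZT4, 3.20, 2.53 and 2.69 at ZT9, with 4.59, 3.80 and 3.95 at ZT24 at 1645 bp upstream (limma adjusted p over the time points = 0.0272). ZT9 was the lowest time point without overlap, and the pileups were 62 to 89 at ZT4, 67 to 84 at ZT9 and 62 to 89 at ZT24. WRKY48, at its TSS, was highest at ZT9 with the folds given above (adjusted p = 0.0284), with a pileup of 137 to 146 at ZT9 and 132 to 161 at ZT4. WRKY16, in its 3′ UTR, had folds of 3.04, 2.47 and 2.85 at ZT4, 2.63, 2.51 and 2.48 at ZT9, with 4.10, 3.44 and 3.32 at ZT24 (adjusted p = 0.0322). ZT24 lay above both other time points there, and the summit was nearest to the TSS of CYTC6A. Its pileups were 54, 46 and 42 at ZT4, 40, 43 and 43 at ZT9, with 66, 53 and 45 at ZT24. The pileups of ZT9 lay below those of ZT24, also by percentile (17.6 to 20.4 against 43.8 to 60.99), and the pileup rank had an adjusted p of 0.104 by limma.

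**Figure D5:**
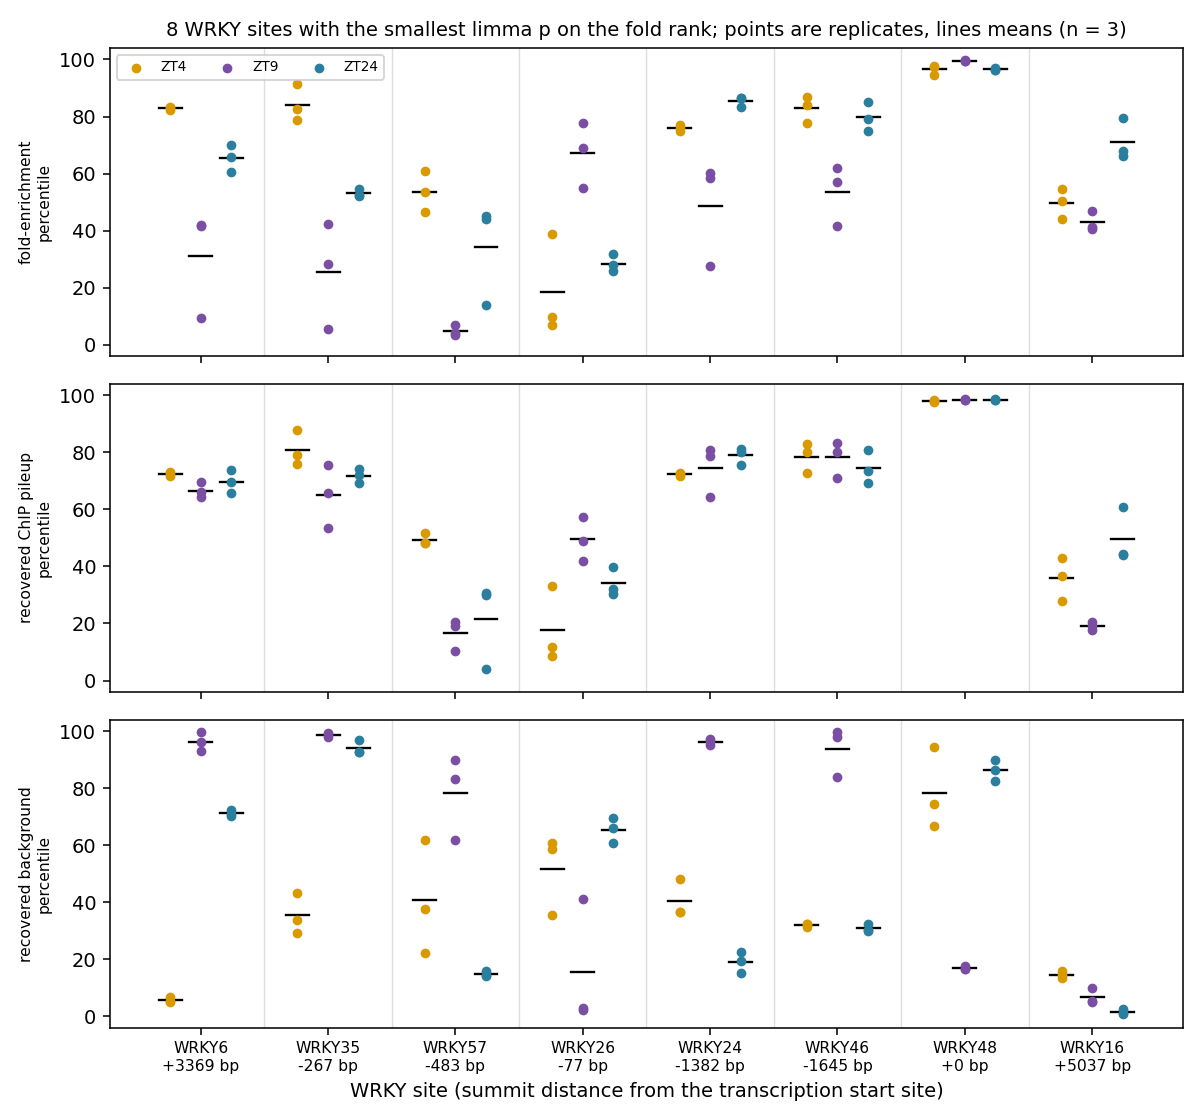
Percentile within the list of fold enrichment (top), recovered ChIP pileup (middle) and recovered background (bottom) for the 8 WRKY sites with the smallest p, labelled by gene and summit distance from the TSS in bp; points are the 3 replicates of each time point and lines their means. At WRKY6 the mean fold percentile falls from 82.8 at ZT4 to 30.97 at ZT9, the pileup percentile goes from 72.5 to 66.6 and the background percentile from 5.69 to 96.3.

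The other called sites were a further WRKY46 site 38 bp upstream, the WRKY69 site, a WRKY26 site 1939 bp upstream, a WRKY15 site 5 bp upstream and the only WRKY67 site, 223 bp upstream, with adjusted p between 0.0330 and 0.0465 (limma). The WRKY69 and WRKY15 sites were called in none of the fits without 1 list. At WRKY15 the mean background percentile was 19.7 at ZT9, the highest time point for fold rank, and 91.6 at ZT24, the lowest.

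Across the 90 WRKY sites, pairs of lists of the same time point had a Spearman rho of 0.798 to 0.915 for the fold, and pairs of different time points one of 0.714 to 0.855. For the pileup these were 0.819 to 0.931 and 0.861 to 0.937, and for the background 0.756 to 0.866 and 0.0800 to 0.368. These are descriptions over sites that share the depth and background of their lists. The order of WRKY sites by pileup had overlapping ranges of rho within and between time points, while the order by background did not.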

How the data were processed

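Per the labels and the methods of the study, the authors converted reads with bcl2fastq, mapped them to TAIR10 with Bowtie, keeping uniquely mapped reads, and called peaks with MACS2 in each replicate against input. Versions were not given in the sources used here, nor which input served which list. The deposited lists give a fold enrichment (ratio), a −log10 p, a −log10 q and an integer score per peak, the last of which was not used. Read depth per sample was not given in the files. The study gives a range of uniquely mapped reads over its ChIP-seq samples, but no count for each one.

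The pileup and background were recovered from fold, (pileup + 1) / (background + 1), and the Poisson p; a whole-number pileup matched the −log10 p within 0.001 for 100% of nuclear peaks. Peaks were placed on TAIR10.1 (RefSeq), and only nuclear peaks were used. Sites were unions of overlapping peaks. limma 3.58.1 in R 4.3.3 was fitted over all sites in all 9 lists with time point as the only term, and was tested on simulated data; pandas 2.3.3 and Python 3.11.15 did the rest. P-values measure only the spread between replicates within time points, pooled over the 9 lists and drawn by limma towards that of all sites. The methods of the study call the replicates biological, but those of a time point may share an input.

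Members, motifs and gene lists were chosen with earlier results of these data known. Genes named were the 10 with the highest mean percentile of the best peak, all without a peak, all bound at 1 or 2 time points, the 8 called sites with the smallest p, and a list by role (WRKY18, WRKY40, WRKY60, WRKY33, WRKY70, WRKY53, WRKY54, WRKY46, WRKY6, WRKY75, WRKY22, WRKY29, WRKY11, WRKY44, WRKY23, WRKY12, WRKY2 and WRKY52). The means of percentiles were taken over the lists with a peak. Alternatives were other peak thresholds, windows, replicate rules, ranked values and motif windows, a replicate block, and leaving out each list.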

Additional observations from a re-analysis of the deposited data

How the results depend on the processing

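Counts of bound WRKY genes stayed within 1.5 times under every peak threshold, window, replicate rule and left-out list tried. With only peaks of −log10 q of 10 or more, 40 WRKY genes (56.3%) were bound at all 3 time points. The share of all genes was then 33.99%. The count with no peak in any list rose from 11 (15.5%, against 20.3% of all genes) to 17 (23.9%, against 42.7%) when only peaks with −log10 q of 10 or more were kept and to 20 (28.2%, against 33.7%) with a promoter window from 1000 bp upstream to 100 bp downstream of the TSS. Leaving out 1 list gave 52 to 56, 55 to 56 and 54 to 58 bound WRKY genes at ZT4, ZT9 and ZT24. The shares of all genes were 61.03% to 68.1%, 58.9% to 66.3% and 61.2% to 68.3%. At all 3 time points 52 to 55 WRKY genes were bound, against 56.5% to 60.4% of all genes. No peak was found at 11 to 12 WRKY genes, against 20.6% to 21.03% of all genes. Counting RRS1 by its synonym ATWRKY52 made 57 genes at ZT9. The W-box core share fell to 29.3% in 100 bp windows (21.4% of all sites), rose to 81.6% in 600 bp windows (72.5%) and was 43.5% for the longer forms; in 100 bp windows the TCP-like share was 14.97% (19.7%) and the AT-rich share 30.6% (25.6%).

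Counts of WRKY sites called over the 3 time points, for ZT9 against ZT4, ZT24 against ZT4 and ZT24 against ZT9 were 13, 8, 2 and 11 (14.6%, 8.32%, 5.00% and 8.97% of all sites). They were 3, 4, 0 and 0 when −log10 p was ranked, 0 in all 4 comparisons when the pileup was ranked, and 20, 13, 8 and 14 with log2 fold centred on the median (23.3%, 13.2%, 9.70% and 13.3% of all sites). With sites in at least 2 of 3 lists of every time point they were 8, 7, 0 and 5 of 100 sites (8.68%, 5.28%, 2.04% and 5.41% of all sites). Leaving out 1 list gave 5 to 8, 4 to 9, 0 to 2 and 1 to 10. Ranking the recovered background, added after seeing the data, gave 62, 44, 35 and 49 (61.8%, 43.04%, 41.3% and 42.5% of all sites). Backgrounds of a time point may share an input, so these counts may not rest on independent replicates. Where a count was 0 for limma, between 11 and 22 WRKY sites had an unadjusted p under 0.05, a number not counted over all sites. The cause of these differences was not tested. By definition, the fold is made of the pileup and the background.

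The deviations of site ranks in lists sharing a replicate number had correlations of −0.0453 to 0.0577. Ranking within a list removes effects common to the whole list, so this cannot show whether samples of a number were processed together. A fit with the replicate number as a block called 6, 6, 0 and 5 WRKY sites, against 10.6%, 6.25%, 2.43% and 6.69% of all sites. The lists hold no read totals, so depth could not be matched between them, and a site below the caller's threshold has no value.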
